A study of Mus musculus with 12 samples.

Results

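The prostaglandin genes described here are 9 mouse genes: the cyclooxygenases Ptgs1 and Ptgs2, the terminal synthases Ptges, Ptgis and Ptgds, the degrading enzyme Hpgd, and the receptors Ptger2, Ptger4 and Ptgfr. They were chosen by name. A gene was represented by the probe set that the platform annotation assigns to its symbol alone, and, where several did so, by the brightest on average of these. Of the 9 genes, 8 had such a probe set, 1 each, among 22180 genes tested, and Ptgs1 was not analysed here.

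The arrays measured total RNA of mouse embryonic fibroblasts (MEFs), connective-tissue cells grown out of embryos and here cultured in DMEM with fetal bovine serum. The 4 groups of 3 arrays were Gdap1-null cells (KO) at day 4 of reprogramming, KO cells before reprogramming (day 0), wild-type cells (WT) at day 4, and WT cells at day 0. Reprogramming meant transduction with the factors Oct4, Sox2, Klf4 and cMyc, which can turn fibroblasts into pluripotent cells. Gdap1 codes for an outer mitochondrial membrane protein involved in mitochondrial fission. A treatment label common to all arrays names both mock and factor transduction and does not say which the day 0 cells had, so transduction, the factors and days in culture cannot be told apart. The labels give neither the nature of the null allele, nor the share of cells that took up the factors, nor whether replicate arrays were made from different cultures or animals. The p-values therefore reflect the spread among these samples alone, which may be technical. With no batch given, batch and group cannot be told apart.

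Prostaglandins are short-lived lipid signals. Phospholipases release arachidonic acid from membranes, the cyclooxygenases turn it into prostaglandin H2, and terminal synthases convert that into the active forms: Ptges gives prostaglandin E2, Ptgis prostacyclin and Ptgds prostaglandin D2. Hpgd inactivates prostaglandins once they are inside the cell. Ptger2 and Ptger4 bind prostaglandin E2 and raise cyclic AMP, and Ptgfr binds prostaglandin F2alpha. In fibroblasts Ptgs2 and Ptges are known as genes induced by serum and by inflammatory signals.

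Values are log2 levels, so a difference of 1 is a factor of 2. In bulk RNA, fewer cells that express a gene and less of its RNA per cell cannot be told apart. The probe set of Gdap1 lay between 2.82 and 3.30 on all arrays, below 3.75, the 25th percentile of genes, and so checks nothing about the genotype. From day 0 to day 4 Klf4 changed by 3.28 in KO cells and 2.94 in WT cells, and Myc by -0.94 and -1.02. In the same order Pou5f1, which encodes Oct4, changed by 0.38 and 0.10, and Sox2 by -0.10 and 0.19. Whether these probe sets read the transduced copies was not tested. The 10 fibroblast markers averaged between 10.35 and 10.72 on every array. WT day 4 array 1 stood apart: its mean correlation with the other arrays of its group, across genes, was 0.987, the lowest of the 12. The mean of 20 inflammatory genes, each centred over the 12 arrays, stood at 1.55 on that array, against -1.18 and -1.40 on the other WT day 4 arrays. Because 1 fit estimates the spread from all groups, that array widens the errors of Ptgs2 and Ptges in every comparison, and their values are given with and without it.

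The upstream sequences of 3 members are shown because these genes had the largest differences between KO and WT cells at day 4, Ptgs2 and Ptges higher in KO cells and Hpgd lower. Each runs from 250 bases before to 50 bases after an annotated transcription start (RefSeq, GRCm38.p6), 5′ to 3′ on the strand of the gene. The Ptgs2 window is chr1:150099781-150100080 on the plus strand, that of Ptges is chr2:30903248-30903547 on the minus strand, and that of Hpgd is chr8:56294302-56294601 on the plus strand. The Ptges window lies inside the annotated span of the gene, chr2:30889471-30931020, and not at its outer end. Capitals mark matches to the 6 motifs searched, on either strand.
Ptgs2: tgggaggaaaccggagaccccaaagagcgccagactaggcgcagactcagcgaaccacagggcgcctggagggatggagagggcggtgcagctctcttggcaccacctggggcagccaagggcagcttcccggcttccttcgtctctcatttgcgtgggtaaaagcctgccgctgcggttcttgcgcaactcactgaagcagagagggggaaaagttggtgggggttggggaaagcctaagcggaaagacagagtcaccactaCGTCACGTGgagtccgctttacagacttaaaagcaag
Ptges: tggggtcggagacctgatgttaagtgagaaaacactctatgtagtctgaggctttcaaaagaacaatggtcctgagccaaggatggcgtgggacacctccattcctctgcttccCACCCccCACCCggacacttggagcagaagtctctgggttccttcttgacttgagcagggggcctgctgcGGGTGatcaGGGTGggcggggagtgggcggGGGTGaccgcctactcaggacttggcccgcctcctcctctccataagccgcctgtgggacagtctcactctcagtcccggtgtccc
Hpgd: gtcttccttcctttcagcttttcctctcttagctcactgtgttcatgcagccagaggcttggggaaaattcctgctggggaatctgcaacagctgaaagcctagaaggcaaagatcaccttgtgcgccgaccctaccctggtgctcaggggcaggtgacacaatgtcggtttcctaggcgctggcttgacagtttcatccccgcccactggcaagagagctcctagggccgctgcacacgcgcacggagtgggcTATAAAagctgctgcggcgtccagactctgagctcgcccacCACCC

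The motifs, with the share of 32851 mouse promoter windows of the same length that hold each, were the TATA box TATAAA (13.6%), the CRE half-site TGACG (20.8%), the E-box CACGTG (7.15%), CCAAT (37.4%), the CACCC box that Klf factors can bind (57.5%) and the AP-1 site TGANTCA (7.81%). In the Ptgs2 window the CRE half-site, read on the opposite strand, covers positions 14 to 18 from the start, and the E-box covers 17 to 22, so the matches overlap. The Ptges window holds 5 CACCC boxes, a number reached by 1.02% of all windows. It had the most among the member windows, and those of Ptger4 and Ptgfr held 3 each, a number reached by 9.35%. The Hpgd window has TATAAA at positions 5 to 10 and CACCC at 46 to 50. Of the 8 members measured, 7 had a window in the table. A match describes letters in the window and not binding.

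In KO against WT cells at day 4, 6 of 8 members passed the test, a limma adjusted p under 0.05 (Benjamini-Hochberg, adjusted over the whole table), where 20.7% of all genes did. Ptgs2, Ptges, Ptger2 and Ptgfr were higher in KO cells, as were 8.34% of all genes, and Ptgds and Hpgd were lower, as were 12.4%. At day 0, 2 of 8 members passed, where 5.6% of all genes did: none was higher in KO cells (2.48% of all genes), and Hpgd and Ptger4 were lower (3.12%). From day 0 to day 4, 2 of 8 members changed in KO cells, where 30.8% of all genes did: Hpgd rose, as did 13.8% of all genes, and Ptgfr fell, as did 16.9%. In WT cells 4 of 8 changed, where 22.9% of all genes did: Hpgd rose (11.1% of all genes), and Ptgs2, Ptger4 and Ptgfr fell (11.7%). The median log2 change of the 8 members was 0.27 for KO against WT at day 4 and 0.02 at day 0, and over all genes it was 0.00 in both. Within KO cells the median of the members was -0.16 and within WT cells -0.21, and over all genes -0.01 in both. These shares are counts on a few chosen genes, and the comparisons share arrays.

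**Figure D1:**
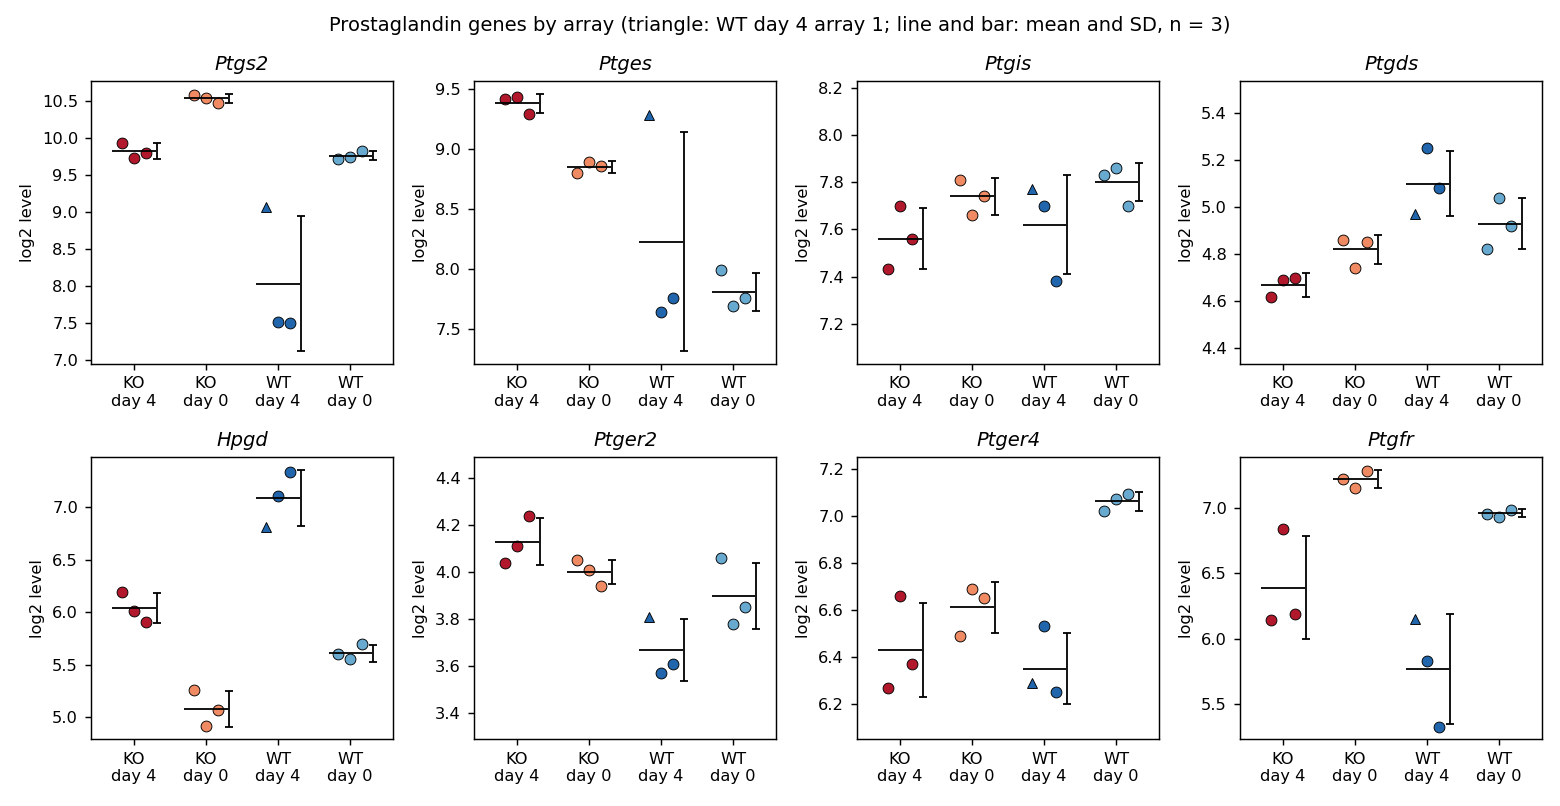
Log2 level (vertical axis) of 8 prostaglandin genes on each array of the 4 groups (horizontal axis). Points are arrays, lines are group means, bars are SD (n = 3), and the triangle is WT day 4 array 1. Ptgs2 was at 7.51 and 7.50 on 2 WT day 4 arrays and at 9.07 on the third, and Hpgd lay higher at day 4 than at day 0 on every array of each genotype.

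Ptgs2, the inducible cyclooxygenase, fell at day 4 in WT cells and was 3.48-fold higher in KO than in WT cells at that time. Its levels were 9.94, 9.73 and 9.80 in KO cells at day 4, 10.59, 10.55 and 10.47 in KO cells at day 0, 9.07, 7.51 and 7.50 in WT cells at day 4, and 9.72, 9.75 and 9.82 in WT cells at day 0. All KO arrays lay above all WT arrays of the same day, and in each genotype all day 4 arrays lay below all day 0 arrays. The order of the group means was KO day 0, KO day 4, WT day 0 and WT day 4, with the arrays of KO day 4 and WT day 0 overlapping.

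KO minus WT for Ptgs2 at day 4 was 1.80 ± 0.30 (SE of the fit, 3 arrays a group, limma adjusted p = 0.00155). At day 0 it was 0.77 ± 0.30, which did not pass (adjusted p = 0.205), and the change within KO cells of -0.71 ± 0.30 did not pass either (adjusted p = 0.0993). Within WT cells Ptgs2 decreased by 1.74 ± 0.30 (3.33-fold, adjusted p = 0.00109). WT day 4 array 1 decides which of these pass. With it left out, the SE was 0.08 in each of these comparisons and all 4 passed. The WT change was then -2.26 (4.79-fold, adjusted p = 1.49e-08), the KO change -0.71 (adjusted p = 1.68e-05), the difference at day 0 0.77 (adjusted p = 2.77e-05) and the difference at day 4 2.32 (5-fold, adjusted p = 1.11e-08). In a fit of the day 0 groups alone, which holds no day 4 array, the difference of 0.77 passed as well (adjusted p = 9.31e-05).

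**Figure D2:**
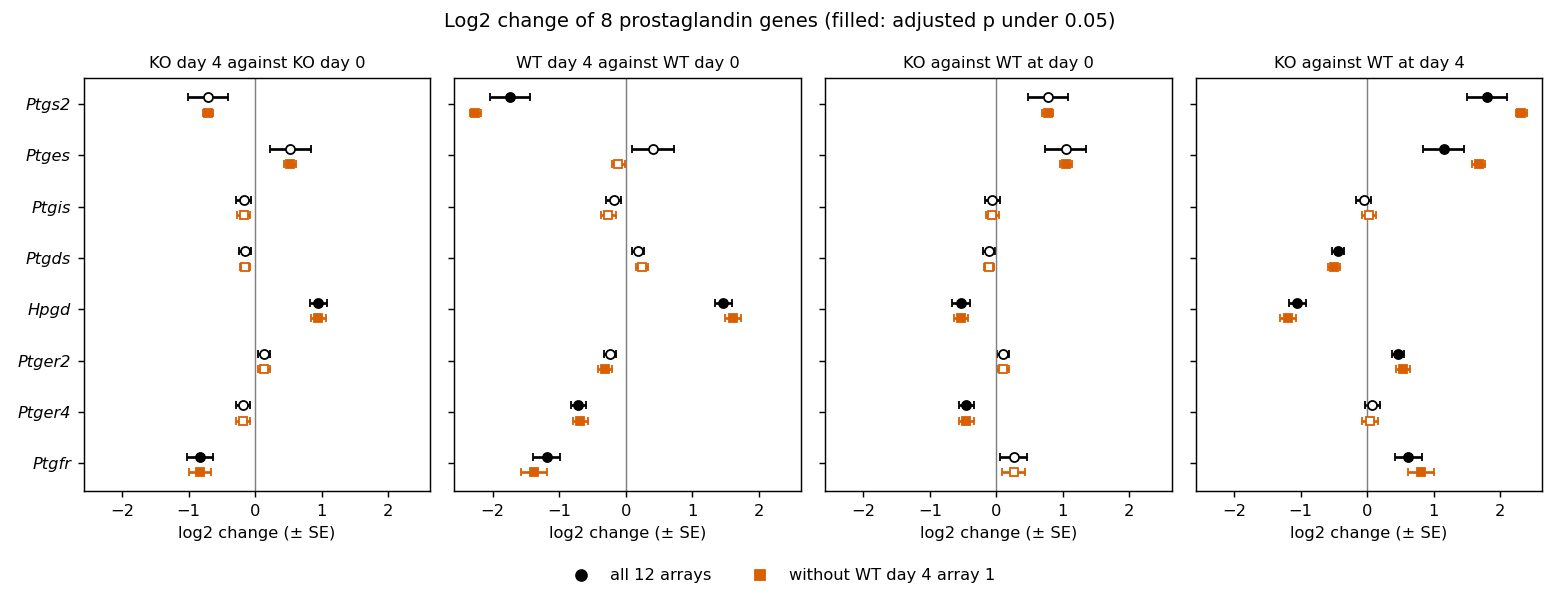
Log2 change (horizontal axis, ± SE, 3 arrays per group) of each member in 4 comparisons, with all 12 arrays (circles) and without WT day 4 array 1 (squares, 2 arrays in that group), filled where the adjusted p was under 0.05. Estimates of Ptgs2 and Ptges in comparisons without WT day 4 stayed in place and their errors narrowed, and in WT day 4 comparisons both estimates moved.

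Ptges, the inducible synthase that makes prostaglandin E2 from the cyclooxygenase product, was 2.22-fold higher in KO than in WT cells at day 4. Its levels were 9.42, 9.43 and 9.29 in KO cells at day 4, 8.80, 8.89 and 8.86 in KO cells at day 0, 9.28, 7.64 and 7.76 in WT cells at day 4, and 7.99, 7.69 and 7.76 in WT cells at day 0. KO arrays did not overlap WT arrays on either day, yet WT day 4 array 1 was almost level with the lowest KO day 4 array. The Ptges mean was higher at day 4 than at day 0 in both genotypes, by an amount that did not pass in either.

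KO minus WT for Ptges was 1.15 ± 0.31 at day 4 (SE of the fit, 3 arrays a group, limma adjusted p = 0.0194) and 1.04 ± 0.31 at day 0 (adjusted p = 0.0787). The day 4 call was lost in a fit of the day 4 groups alone (adjusted p = 0.101). The change at day 4 was 0.53 ± 0.31 in KO cells (adjusted p = 0.23) and 0.41 ± 0.31 in WT cells (adjusted p = 0.414). When WT day 4 array 1 was left out, Ptges was higher in KO cells by 1.68 ± 0.10 at day 4 (3.20-fold, adjusted p = 4.14e-07) and by 1.04 ± 0.09 at day 0 (adjusted p = 9.15e-06). It then also rose at day 4 in KO cells (0.53 ± 0.09, adjusted p = 0.000521), and the change in WT cells was -0.11 ± 0.10 (adjusted p = 0.497), opposite in sign to that with all arrays. In fits of the compared groups alone, the difference at day 0 and the rise in KO cells also passed (adjusted p = 8.74e-05 and 0.00117).

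The mean of the inflammatory genes named above was high on the same arrays as Ptges, and its part in the results for Ptges and Ptgs2 was not tested. WT day 4 array 1 had the highest mean. Its Ptgs2 level of 9.07 lay above those of the other WT day 4 arrays (7.51 and 7.50) and below those of all WT day 0 arrays. The centred mean of the inflammatory genes was 0.61 to 0.93 in KO cells at day 4, 0.68 to 0.71 in KO cells at day 0, -1.40 to 1.55 in WT cells at day 4 and -1.09 to -1.07 in WT cells at day 0. In KO against WT cells at day 4, 3 of the 20 passed, where 20.7% of all genes did, and all 3 were higher: the NF-kappaB regulator Nfkbiz (1.41 ± 0.39, adjusted p = 0.0232), the cytokine gene Il6 (1.80 ± 0.51, adjusted p = 0.0251) and the protease gene Mmp3 (2.75 ± 0.87, adjusted p = 0.041). On leaving out 1 array these calls were lost in 5, 3 and 11 of 12 fits. At day 0, 8 passed, where 5.6% of all genes did, all higher and these 3 among them, with Il6 at 3.11 ± 0.51 (adjusted p = 0.00272) and Mmp3 at 4.66 ± 0.87 (adjusted p = 0.00626). The day 0 calls of Il6, Mmp3 and Saa3 held in all 12 fits that leave out 1 array. Those of Cxcl5, Lif and Ccl7 were lost in 6 each, and those of Nfkbiz and Cxcl1 in 9 each. The median difference of the 20 inflammatory genes was 0.99 at day 4 and 1.37 at day 0, against 0.00 over all genes. Leaving out WT day 4 array 1 gave 18 higher and 0 lower at day 4, where 26.7% of all genes passed, and 17 higher and 2 lower at day 0, where 8.73% did. Of 11 interferon response genes measured, 4 were higher in KO cells at day 4 (8.34% of all genes) and 8 at day 0 (2.48%), and without that array 10 were higher on each day.

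**Figure D3:**
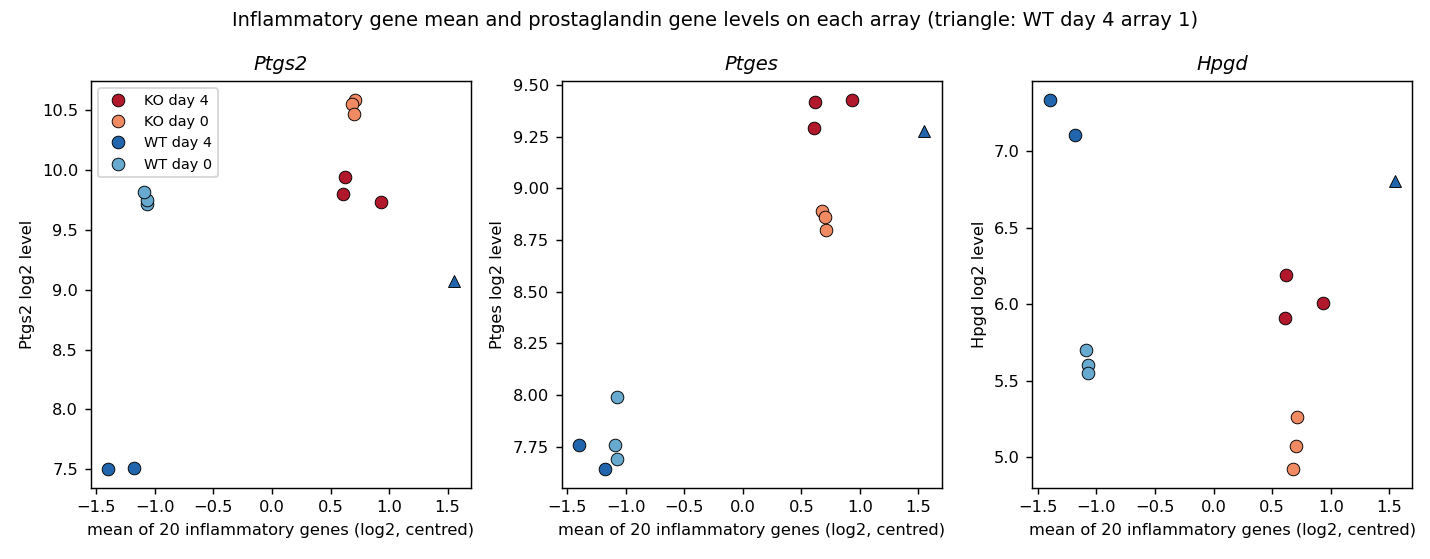
Log2 level of Ptgs2, Ptges and Hpgd (vertical axes) against the mean of 20 inflammatory genes, each centred over the 12 arrays (horizontal axis, log2), with 1 point per array and WT day 4 array 1 as a triangle. The 7 arrays with a positive mean, all 6 KO arrays and WT day 4 array 1, hold the 7 highest Ptges levels, while WT day 0 arrays combine a mean of -1.09 to -1.07 with Ptgs2 levels of 9.72 to 9.82.

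The other synthases differed little. Ptgis, prostacyclin synthase, passed in 0 of the 5 comparisons, with 0 at an unadjusted p under 0.05, and its arrays spanned 7.38 to 7.86 over all groups. The 95% interval of its KO minus WT difference was -0.29 to 0.18 on both days. Ptgds, a prostaglandin D2 synthase, was lower in KO cells at day 4. Its levels there were 4.62, 4.69 and 4.70, against 4.97, 5.25 and 5.08 in WT cells, with no overlap, and the difference was -0.43 ± 0.09 (adjusted p = 0.0043), or -0.50 (adjusted p = 0.00144) without WT day 4 array 1. At day 0 its levels were 4.86, 4.74 and 4.85 in KO cells and 4.82, 5.04 and 4.92 in WT cells, which overlap. Ptgds lay at the 44.4 percentile of all genes.

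Hpgd, the dehydrogenase that inactivates prostaglandins, rose at day 4 in both genotypes and was lower in KO cells on both days. Its levels were 6.19, 6.01 and 5.91 in KO cells at day 4, 5.26, 4.92 and 5.07 in KO cells at day 0, 6.81, 7.11 and 7.34 in WT cells at day 4, and 5.60, 5.55 and 5.70 in WT cells at day 0. It was the one member whose 4 groups were all apart, in the order WT day 4, KO day 4, WT day 0 and KO day 0.

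The rise of Hpgd was 0.95 ± 0.13 in KO cells (SE of the fit, 3 arrays a group, 1.94-fold, limma adjusted p = 0.000125) and 1.47 ± 0.13 in WT cells (2.77-fold, adjusted p = 5.95e-06). KO minus WT was -1.05 ± 0.13 at day 4, a level 2.07-fold lower in KO cells (adjusted p = 0.000243). At day 0 it was -0.53 ± 0.13 (adjusted p = 0.0315), a call that was lost on leaving out KO day 0 array 2 or 3 or any of the WT day 0 arrays, with adjusted p between 0.071 and 0.14. Leaving out WT day 4 array 1 gave 0.95, 1.61, -1.19 and -0.53 in the same order, and all passed.

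Markers of other cell types differed between the same groups, and their part in the results for Hpgd and Ptgds was not tested. Of 10 macrophage markers, 8 were lower and 0 higher in KO cells at day 4, where 12.4% of all genes were lower, and likewise at day 0, where 3.12% were. Their mean level was 5.10 to 5.12 in KO cells at day 4, 5.06 to 5.14 in KO cells at day 0, 6.04 to 6.67 in WT cells at day 4 and 6.26 to 6.31 in WT cells at day 0. Ptprc, the pan-leukocyte marker among them, averaged 3.49 in KO cells at day 4 and 3.66 in KO cells at day 0, under the 25th percentile level, and 4.36 in WT cells at day 4 and 4.48 in WT cells at day 0. Of 7 epithelial markers measured, 3 rose and 1 fell at day 4 in KO cells, and 5 rose and 1 fell in WT cells, against 13.8% and 11.1% of all genes that rose. In KO against WT cells 3 were lower at day 4 and 2 at day 0. Their mean level was 5.52 to 5.76 in KO cells at day 4, 5.26 to 5.35 in KO cells at day 0, 6.03 to 6.19 in WT cells at day 4 and 5.56 to 5.61 in WT cells at day 0.

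Among the receptors, Ptgfr, the prostaglandin F receptor, fell at day 4 in both genotypes. Its levels were 6.14, 6.84 and 6.19 in KO cells at day 4, 7.22, 7.15 and 7.28 in KO cells at day 0, 6.15, 5.83 and 5.33 in WT cells at day 4, and 6.95, 6.93 and 6.98 in WT cells at day 0. Day 4 arrays lay below day 0 arrays in each genotype and were the more scattered. Ptgfr decreased by 0.83 ± 0.20 in KO cells (SE of the fit, 3 arrays a group, limma adjusted p = 0.006) and by 1.19 ± 0.20 in WT cells (adjusted p = 0.000713). At day 4 Ptgfr was higher in KO than in WT cells by 0.62 ± 0.20 (adjusted p = 0.0416), although the arrays overlap, and that call was lost in 9 of the 12 fits that leave out 1 array and in the fit of the day 4 groups alone (adjusted p = 0.156). The day 4 difference was 0.39 ± 0.17 (adjusted p = 0.144) without KO day 4 array 2. It was 0.40 ± 0.18 (adjusted p = 0.17) without WT day 4 array 3. It was 0.81 ± 0.19 (adjusted p = 0.00674) without WT day 4 array 1, and the decrease in WT cells was then by 1.38 (adjusted p = 0.00019). All of 8 smooth muscle markers also fell at day 4 in each genotype, as did 16.9% of all genes in KO cells and 11.7% in WT cells, and their part in the falls of Ptgfr, Ptger4 and Ptgs2 was not tested: their mean level was 7.40 to 8.21 in KO cells at day 4 and 9.39 to 9.46 at day 0, and 7.15 to 8.07 in WT cells at day 4 and 9.86 to 9.89 at day 0.

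Ptger4, a prostaglandin E2 receptor that signals through cyclic AMP, fell at day 4 in WT cells. Its levels were 6.27, 6.66 and 6.37 in KO cells at day 4, 6.49, 6.69 and 6.65 in KO cells at day 0, 6.29, 6.53 and 6.25 in WT cells at day 4, and 7.02, 7.07 and 7.09 in WT cells at day 0. The WT day 0 arrays were above all others, and the remaining groups overlapped. Ptger4 decreased by 0.71 ± 0.11 in WT cells (adjusted p = 0.000374), and its change in KO cells was -0.18 ± 0.11 (adjusted p = 0.24). KO minus WT was -0.45 ± 0.11 at day 0 (adjusted p = 0.0279) and 0.08 ± 0.11 at day 4 (adjusted p = 0.663). The day 0 call was lost on leaving out any 1 of the 6 day 0 arrays, with adjusted p between 0.0573 and 0.126. Without WT day 4 array 1 the WT change was -0.68 (adjusted p = 0.00135) and the day 0 difference still passed (adjusted p = 0.0203).

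Ptger2, the other cyclic AMP-raising prostaglandin E2 receptor, was near the low end of the array, at the 28.4 percentile of genes. Its levels were 4.04, 4.11 and 4.24 in KO cells at day 4 and 3.81, 3.57 and 3.61 in WT cells at day 4, with no overlap, and KO minus WT was 0.46 ± 0.09 (adjusted p = 0.00459), or 0.54 (adjusted p = 0.00137) without WT day 4 array 1. At day 0 its levels were 4.05, 4.01 and 3.94 in KO cells and 4.06, 3.78 and 3.85 in WT cells, and the difference of 0.10 ± 0.09 did not pass (adjusted p = 0.683). The change of -0.23 ± 0.09 in WT cells did not pass with all arrays (adjusted p = 0.106) and passed without that array (-0.31 ± 0.10, adjusted p = 0.0378).

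Whether the change at day 4 differed between the genotypes was tested as the KO change minus the WT change. With all arrays, 0 of 8 members passed in limma, where 3.95% of all genes did (2.15% with a positive and 1.81% with a negative difference). The difference was 1.02 ± 0.43 for Ptgs2 (adjusted p = 0.215), -0.52 ± 0.18 for Hpgd (adjusted p = 0.14), 0.53 ± 0.15 for Ptger4 (adjusted p = 0.0743), 0.36 ± 0.13 for Ptger2 (adjusted p = 0.154) and -0.33 ± 0.12 for Ptgds (adjusted p = 0.166). It was 0.12 ± 0.44 for Ptges, 0.36 ± 0.28 for Ptgfr and 0.01 ± 0.15 for Ptgis. Leaving out WT day 4 array 1, 3 of 8 members passed, where 9.65% of all genes did. These were Ptgs2 (1.55 ± 0.11, adjusted p = 2.53e-05), Ptges (0.64 ± 0.13, adjusted p = 0.0112) and Hpgd (-0.66 ± 0.16, adjusted p = 0.0229).

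For the 4 members whose group means span at least 1 log2 unit, the genes with the most similar levels over the 12 arrays were sought among 1915 genes with such a span. The correlations are descriptions, and the points share the 4 groups and WT day 4 array 1. Acsl4 (Pearson r = 0.982), Inf2 (0.981) and Errfi1 (0.975) were most like Ptgs2. Fam162a (0.992), Gsap (0.99) and Lcn2 (0.982) were most like Ptges. Rragb (0.984), Sema3d (0.981) and Cmss1 (0.976) were most like Hpgd, and Flt1 (0.988), Nectin2 (0.983) and Lrrk2 (0.978) were most like Ptgfr.

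A list of 35 other prostanoid pathway genes, of which 31 were measured, covers phospholipases, further synthases and reductases, transporters and the remaining receptors. In KO cells 6 were higher and 2 lower at day 4, where 30.8% of all genes passed, and in WT cells 7 were higher and 3 lower, where 22.9% did. In KO against WT cells 2 were higher and 2 lower at day 4, where 20.7% of all genes passed, and 4 were higher and 2 lower at day 0, where 5.6% did. Without WT day 4 array 1 these counts were 4 and 4 at day 4, against 26.7% of all genes, and 7 and 2 at day 0, against 8.73%. The median log2 change of the list lay between 0.02 and 0.11 in these 4 comparisons, against -0.01 to 0.00 over all genes.

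The phospholipase gene Pla2g4a, whose product releases arachidonic acid from membranes, differed between the genotypes at day 4. Its levels were 9.17, 9.13 and 9.03 in KO cells at day 4, 8.76, 8.83 and 8.83 in KO cells at day 0, 8.24, 7.55 and 7.22 in WT cells at day 4, and 8.47, 8.37 and 8.54 in WT cells at day 0. The WT day 4 arrays were the lowest, WT array 1 the least so, and no groups of the same day or genotype overlapped. KO minus WT at day 4 was 1.44 ± 0.18 (2.71-fold, adjusted p = 0.000288) and the WT change was -0.79 ± 0.18 (adjusted p = 0.0071). Leaving out WT day 4 array 1 gave 1.72 and -1.07, and both passed. The change in KO cells was 0.30 ± 0.18 (adjusted p = 0.252, or 0.022 without that array). Of the other phospholipase genes, Pla2g15 fell in WT cells (-0.66 ± 0.12, adjusted p = 0.00123), and Pla2g4c fell in KO cells (-0.44 ± 0.13, adjusted p = 0.0165), a call lost in 3 of the 12 fits that leave out 1 array. Pla2g12a rose by 0.41 ± 0.12 in KO cells (adjusted p = 0.0218) and by 0.37 ± 0.12 in WT cells (adjusted p = 0.0449), calls lost in 2 and 9 of those fits, and without WT day 4 array 1 the WT change was 0.23 (adjusted p = 0.151).

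Among the enzymes that convert or degrade prostanoids, Akr1c18, an aldo-keto reductase that also inactivates progesterone, had the largest day 4 rise of the list. It was at 8.80, 8.70 and 8.76 in KO cells at day 4, against 4.77, 4.56 and 4.46 at day 0, and at 8.95, 8.89 and 8.89 in WT cells at day 4, against 4.37, 4.15 and 4.21 at day 0. The rise was 4.16 ± 0.09 in KO cells (adjusted p = 4.96e-11) and 4.67 ± 0.09 in WT cells (adjusted p = 1.15e-11). Cbr1, a carbonyl reductase, rose in WT cells by 0.74 ± 0.15 (adjusted p = 0.00354). Ptgr1, a reductase that acts on prostaglandins already oxidised by Hpgd, was higher in KO cells on both days, by 0.91 ± 0.13 at day 4 (adjusted p = 0.000608) and 0.81 ± 0.13 at day 0 (adjusted p = 0.00292). These Ptgr1 calls and the rises of Akr1c18 and Cbr1 held on leaving out each array in turn.

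Hpgds, the hematopoietic prostaglandin D2 synthase, was lower in KO cells at day 4. Its levels there were 3.88, 4.06 and 3.57, against 4.66, 4.64 and 5.0 in WT cells, and the difference was -0.92 ± 0.13 (adjusted p = 0.000482). At day 0 it was -0.49 ± 0.13 (adjusted p = 0.0462), a call lost in 7 of the 12 fits that leave out 1 array. Hpgds means in KO cells, 3.84 at day 4 and 4.02 at day 0, lay near 3.75, the 25th percentile level. Of 6 mast cell markers, 5 had a mean over the 12 arrays under the 25th percentile level. The macrophage markers differed as given for Hpgd, and their part was not tested here either.

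Of the other receptors and their partners, Tbxa2r, the thromboxane receptor, was lower in KO cells at day 0 by 0.83 ± 0.16 on the log2 scale, with 6.55, 6.60 and 6.47 in KO cells against 7.22, 7.46 and 7.45 in WT cells (adjusted p = 0.00717). At day 4 the arrays overlapped (-0.29 ± 0.16, adjusted p = 0.229), although the difference passed without WT day 4 array 1 (-0.47, adjusted p = 0.0285). Ptgfrn, a membrane protein that associates with and inhibits the prostaglandin F receptor, rose by 1.35 ± 0.09 in KO cells (adjusted p = 6.93e-07) and by 1.34 ± 0.09 in WT cells (adjusted p = 9.44e-07) at day 4, when Ptgfr fell in both. The prostaglandin transporter gene Slco2a1 rose at day 4 by 0.24 ± 0.07 in KO cells (adjusted p = 0.0222) and by 0.36 ± 0.07 in WT cells (adjusted p = 0.00275), and was lower in KO than in WT cells at day 4 (-0.27 ± 0.07, adjusted p = 0.018). The Slco2a1 call in KO cells was lost in 4 of the 12 fits that leave out 1 array, and the day 4 difference was not called without KO day 4 array 1.

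**Figure D4:**
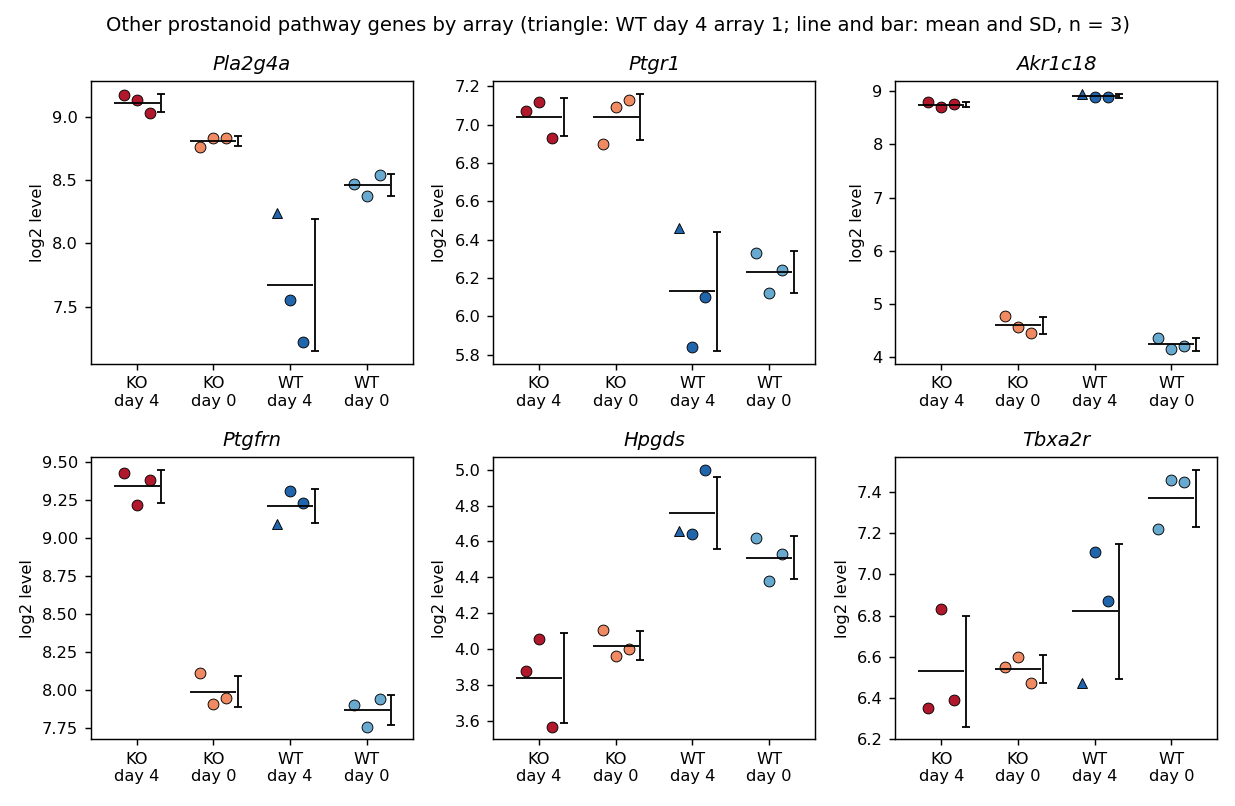
Log2 level (vertical axis) of 6 other prostanoid pathway genes on each array of the 4 groups (horizontal axis). Points are arrays, lines are group means, bars are SD (n = 3), and the triangle is WT day 4 array 1. Akr1c18 and Ptgfrn separate the days in both genotypes, Ptgr1 and Hpgds separate KO from WT cells on both days, and Pla2g4a is lowest in WT cells at day 4.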

How the data were processed

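The authors deposited log2 levels per probe set for 12 one-colour Affymetrix arrays. Per the submitters' processing notes, Affymetrix Expression Console (version unstated) was used. How the authors corrected background, normalized and summarised probes is not given in the sources used here, so any effect of those steps on the deposited log2 levels cannot be judged. Array medians lay between 5.22 and 5.32, and no further normalization or filter was applied. Probe sets with 1 gene symbol (23521 of 41345) gave 22180 genes, the brightest probe set standing for each. The number of arrays limits the precision.

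One limma 3.58.1 model (R 4.3.3) of 4 group means without covariates was fitted to all 12 arrays, with 8 residual degrees of freedom. Its moderated tests were two-sided, and each change is given with its SE from that fit. Alternatives were quantile normalization, median centring, a 25th percentile filter, averaged probe sets, all probe sets, a trended robust prior, array weights, fits of the compared groups, a replicate block, a 2-fold minimum and the omission of arrays. Omissions for genes outside the 8 members were added after seeing the data. Members, gene lists and tests were chosen with earlier results of these data known. Members were named in every comparison, and up to 8 genes per list and comparison, those with the smallest p past the threshold, were eligible for naming. The model was tested on simulated data. Motif letters were searched in RefSeq promoter windows with Python 3.11.15.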

Additional observations from a re-analysis of the deposited data

Results flagged for a closer look

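The KO and WT changes at day 4 differed (limma, adjusted p under 0.05) for 8 genes of the pathway, lipoxygenase, cyclic AMP and interferon lists. In that order these were 2 of 31, 1 of 13, 2 of 12 and 3 of 11 genes measured. Of the 20 inflammatory genes 0 passed, and of all genes 3.95% did. The difference is given as the KO change minus the WT change on the log2 scale. For Pla2g4a it was 1.09 ± 0.26 (adjusted p = 0.0365), lost in 11 of 12 fits that leave out 1 array, and 1.37 (adjusted p = 0.000189) without WT day 4 array 1. For Akr1c18 it was -0.52 (adjusted p = 0.0425), lost in 10 of those fits. For Alox5ap, which encodes the 5-lipoxygenase activating protein, it was 1.48 (adjusted p = 0.00169), and the call held in all 12. For Nr4a2, a transcription factor gene induced by cyclic AMP, it was -1.24 (adjusted p = 0.00426), and the call also held in all 12. For the kinase gene Sik1 it was 0.63 (adjusted p = 0.0408), lost in 10. The interferon-induced genes gave -3.74 for Ifit1 (adjusted p = 0.012) and -1.22 for Ifit2 (adjusted p = 0.0127), which held in all 12, and -2.40 for Mx2 (adjusted p = 0.0476), lost in 9.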

How the results depend on the processing

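No member's called change reversed its sign under any alternative run, and the cause of the moves below was not tested. The calls of Ptgs2, Ptgds, Ptger2 and Hpgd in KO against WT at day 4 held in each array omission. So did those of the Hpgd change within each genotype and of Ptgs2, Ptger4 and Ptgfr in WT cells. Counts of members past the threshold, with the range over omissions of 1 array, were 2 (2 to 4) for the KO change, 4 (4 to 5) for the WT change, 2 (0 to 4) for KO against WT at day 0, 6 (4 to 6) at day 4 and 0 (0 to 3) for the difference of changes. The omission of WT day 4 array 1 gave the highest count in each comparison, and in KO against WT at day 4 that count of 6 equalled the one with all arrays. A 2-fold minimum gave 0 members for the KO change, 0 at day 0 and 3 at day 4. Fits of the compared groups gave 4 for the KO change and 5 at day 0. In KO against WT at day 4 those fits ended the calls of Ptges (adjusted p = 0.101) and Ptgfr (adjusted p = 0.156). Array weights gave 4 at day 0 and 2 for the difference. All probe sets gave 0 at day 0. Leaving out both KO day 4 array 2 and WT day 4 array 1, counts were 5 for the KO change, 4 at day 0 and 3 for the difference. Same-numbered arrays deviated from their group means with correlations of -0.06 to 0.182, over 0.1 in 2 of 12 pairs. Those were KO with WT at day 4, arrays 2 (0.182) and arrays 3 (0.116). The correlations do not settle whether the numbers pair the arrays. With the replicate block, 1 member passed at day 0 and 1 in the difference: Hpgd did not pass at day 0 (adjusted p = 0.0507), and Ptger4 passed in the difference (adjusted p = 0.045). The trended prior ended the day 4 call of Ptges (adjusted p = 0.0583), as did leaving out WT day 4 array 2 or 3 or KO day 4 array 1 (adjusted p = 0.0807, 0.0883 and 0.0547).

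Over all genes, the counts and their ranges over omissions of 1 array were 6828 (5539 to 7646) for the KO change, 5072 (3977 to 5165) for the WT change, 1242 (769 to 1936) at day 0, 4596 (2946 to 5929) at day 4 and 877 (395 to 2140) for the difference. In the same order, a 2-fold minimum left 834, 779, 273, 330 and 179. Array weights gave 2562 at day 0 and 1852 for the difference, fits of the compared groups 2453 at day 0 and 1923 at day 4, all probe sets 503 for the difference, and the joint omission 2165 at day 0 and 2521 for the difference.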

Other observations

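The lipoxygenase branch, which also uses arachidonic acid, was represented by 13 measured genes, and 1 of them, Alox5ap, passed in any comparison with all arrays. It passed in the KO change (30.8% of all genes), in KO against WT at day 0 (5.6%) and in the difference of changes (3.95%). None passed in the WT change (22.9% of all genes) or in KO against WT at day 4 (20.7%). Alox5ap levels were 6.73, 6.77 and 6.37 in KO cells at day 4, 5.23, 5.62 and 5.31 in KO cells at day 0, 6.93, 6.87 and 6.63 in WT cells at day 4, and 7.08, 7.15 and 6.92 in WT cells at day 0. The KO day 0 arrays stood alone at the low end. Alox5ap rose in KO cells by 1.24 ± 0.13 (adjusted p = 2.03e-05) and was lower in KO than in WT cells at day 0 (-1.66 ± 0.13, 3.17-fold, adjusted p = 1.42e-05).

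Of 12 measured genes known to respond to cyclic AMP, which Ptger2 and Ptger4 raise, 3 were higher and 6 lower at day 4 in KO cells, where 30.8% of all genes passed, and 0 higher and 3 lower in WT cells, where 22.9% did. Nr4a2 fell in KO cells by 1.40 ± 0.13 (adjusted p = 7.83e-06), where its levels were 6.25, 6.67 and 6.86 at day 4 and 7.93, 7.99 and 8.06 at day 0. In WT cells Nr4a2 was at 6.58, 6.81 and 6.85 at day 4 and at 6.97, 6.91 and 6.84 at day 0, which overlap. Pde4b, a phosphodiesterase that breaks down cyclic AMP, fell in both genotypes, by 0.51 ± 0.11 in KO cells (adjusted p = 0.00252) and by 0.68 in WT cells (adjusted p = 0.00045). The 3 genes that were higher at day 4 in KO cells were Sik1 (0.80 ± 0.11, adjusted p = 0.000122), Fos (0.69 ± 0.13, adjusted p = 0.00143) and Per1 (0.39 ± 0.08, adjusted p = 0.00211).

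Ptgs2os, an RNA gene named as the opposite strand of Ptgs2, was chosen after its values were seen. Its annotated span lies upstream of Ptgs2, with 156 bases between the genes. Ptgs2os was at 5.21, 5.33 and 5.14 in KO cells at day 4 and 6.24, 6.34 and 6.30 at day 0. In WT cells it was at 5.42, 4.71 and 5.06 at day 4 and 5.58, 5.78 and 5.67 at day 0. It fell at day 4 by 1.07 ± 0.14 in KO cells (adjusted p = 9.23e-05) and by 0.62 ± 0.14 in WT cells (adjusted p = 0.00604). At day 4 KO minus WT was 0.16 ± 0.14 for Ptgs2os (adjusted p = 0.459), and 1.80 ± 0.30 for Ptgs2. At day 0 Ptgs2os was higher in KO cells by 0.61 ± 0.14 (adjusted p = 0.0207), a call lost in 5 of the 12 fits that leave out 1 array. Without WT day 4 array 1 the Ptgs2os difference at day 4 was 0.34 (adjusted p = 0.0347).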
